A study of Mus musculus with 24 samples.

Results

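Oxidative phosphorylation is the last stage of respiration, and the genes described here are those whose symbols start with Nduf, Uqcr, Sdh, Atp5 or Cox followed by a digit, with pseudogene symbols (-ps) left out. The rule uses names only, no measured value. It took 106 of the 49568 genes listed for the mouse liver fractions and the same 106 of the 49566 genes listed once for the cultures. They comprise 45 genes of complex I, 8 of complex II, 8 of complex III, 29 of complex IV and 16 of complex V. By role, 74 encode subunits present in most tissues, 22 encode assembly factors, which build a complex without staying in it, 8 encode complex IV isoforms restricted to some tissues or conditions, and the other two are Cox7a2l and Atp5s. The name rule reaches beyond strict subunits: Atp5sl, named for ATP synthase, is an assembly factor of complex I and was counted there, and Ndufa4, first assigned to complex I, is a subunit of complex IV.

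Complexes I and II feed electrons from NADH and succinate to ubiquinone, complex III passes them to cytochrome c, and complex IV, cytochrome c oxidase, hands them to oxygen. Complexes I, III and IV pump protons across the inner mitochondrial membrane, and complex V, ATP synthase, lets them flow back to make ATP. Most subunits are encoded in the nucleus, a few in mitochondrial DNA, and complex IV exchanges some subunits for isoforms made in muscle, in testis or at low oxygen.

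Both experiments were bulk RNA-seq of mouse liver cells, 24 libraries in all, and asked how ductal cells (DC, the cells that line the bile ducts) and the mesenchymal cells around them (Msc) compare and respond to each other. In the homeostasis experiment, 3 healthy littermates of 12 weeks (A and E male, F female) on a C57BL/6 background, heterozygous for Pdgfra-H2BGFP, in which green fluorescent protein reports Pdgfra, each gave 4 sorted fractions. These were DC (EpCAM+) and 3 stromal fractions, all gated as negative for CD45, CD11b and CD31: PDGFRα+SCA1+, PDGFRα+SCA1- and PDGFRα-SCA1+. In the transwell experiment, C57BL/6 wild-type mice of 8 to 12 weeks gave 6 groups of 2 samples: DC at sorting (day 0), DC grown for 15 days as organoids alone in the growth-factor-rich expansion medium EM (EM organoids), DC grown for 15 days on a transwell insert above Msc in the mesenchymal medium MM (co-cultured organoids), Msc at sorting, Msc cultured alone for 15 days, and Msc cultured for 15 days under organoids. The paper calls MM devoid of growth factors, although it describes MM as supplemented with WNT3A. The transwell Msc were sorted as SCA1+ CD45-CD11b-CD31- with no gate on PDGFRα, from 2 littermates, and were expanded on the transwell bottom before the DC of other littermates were added. The EM and co-cultured organoids differ in medium as well as in the presence of Msc, so these cannot be told apart. There is no library of DC alone in MM, which by the paper's account grew too little for sequencing.

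Sequencing depth was about 19600000 to 25700000 reads per library in the homeostasis experiment and 17600000 to 26100000 in the transwell experiment. Transwell values are given in TPM (a scale per length on which every library has the same total). The homeostasis values are those deposited under the name TPM, also per length, although their columns sum to 847000 to 1170000 and single values lie between 0.722 and 1.39 times a true TPM. Ductal marker genes summed to 58495 to 79015 in homeostasis DC, and mesenchymal markers to 30579 to 53843 in the PDGFRα+ fractions. Pdgfra itself was at 52.9 to 102.9 in both PDGFRα+ fractions and at most 0.0828 in the other fractions. The SCA1 part of the names was not checked here. Smooth muscle and mural markers summed to 1823 to 3174 in PDGFRα+SCA1- Msc, against 435 to 505 in PDGFRα+SCA1+ Msc. The part of this difference in the comparisons was not tested. The PDGFRα-SCA1+ fraction carried few mesenchymal transcripts (369 to 656): its endothelial markers summed to 5599 to 8264, against at most 26.6 in the other fractions, although the gate used CD31, and its ductal markers reached 3953 in mouse E. Hepatocyte transcripts were in every sorted fraction (344 to 8827 in homeostasis, 28584 and 23522 in Msc at day 0, 4865 and 5936 in DC at day 0).

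Promoter letters of the respiratory regulators NRF1 and GABP were more frequent among these genes than among all genes. Promoter entries were found for 88 of the 106 genes in RefSeq (GRCm38.p6), and the 250 bases before each start were searched on both strands. The NRF1 core (GCATGCGC) was in 9 of the 88 (10.2%) and in 2.56% of 27025 genes with an entry. The GABP core of the ETS factors (CCGGAAG) was in 19 (21.6%), against 7.83% of all. The YY1 core (AAGATGGC) was in 3 (3.41%), too few to set against the 1.83% of all genes. A match describes the letters only. The 6 promoters below were chosen because their genes recur in the results: Cox6a1 and Ndufaf4 hold the NRF1 core (on both strands, whose letters overlap there), Cox6a1, Uqcr11 and Sdhd hold the GABP core, and the restricted isoforms Cox7a1 and Cox8b hold neither. Capitals mark the matches, and each sequence reads 5′ to 3′ toward the start of transcription.
Cox6a1 (chr5:115348959-115349208, minus strand): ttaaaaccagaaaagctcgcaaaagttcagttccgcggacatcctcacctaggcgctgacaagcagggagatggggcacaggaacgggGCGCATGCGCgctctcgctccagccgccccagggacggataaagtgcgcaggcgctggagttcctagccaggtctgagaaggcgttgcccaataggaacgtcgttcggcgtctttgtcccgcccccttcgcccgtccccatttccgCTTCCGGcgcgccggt
Ndufaf4 (chr4:24897833-24898082, plus strand): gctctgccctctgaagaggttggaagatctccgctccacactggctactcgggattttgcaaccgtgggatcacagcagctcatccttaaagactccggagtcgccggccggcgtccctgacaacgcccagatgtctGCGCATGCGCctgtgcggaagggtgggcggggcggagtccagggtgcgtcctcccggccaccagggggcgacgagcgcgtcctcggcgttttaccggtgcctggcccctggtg
Uqcr11 (chr10:80406822-80407071, minus strand): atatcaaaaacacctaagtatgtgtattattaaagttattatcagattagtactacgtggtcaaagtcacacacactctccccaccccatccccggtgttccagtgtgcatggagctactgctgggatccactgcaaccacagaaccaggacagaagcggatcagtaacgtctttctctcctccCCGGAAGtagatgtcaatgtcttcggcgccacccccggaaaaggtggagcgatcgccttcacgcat
Sdhd (chr9:50603850-50604099, minus strand): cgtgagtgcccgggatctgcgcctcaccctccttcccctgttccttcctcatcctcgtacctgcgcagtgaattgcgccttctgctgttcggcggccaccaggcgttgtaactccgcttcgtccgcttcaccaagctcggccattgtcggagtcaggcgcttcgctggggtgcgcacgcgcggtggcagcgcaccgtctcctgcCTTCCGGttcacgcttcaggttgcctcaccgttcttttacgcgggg
Cox7a1 (chr7:30183921-30184170, plus strand): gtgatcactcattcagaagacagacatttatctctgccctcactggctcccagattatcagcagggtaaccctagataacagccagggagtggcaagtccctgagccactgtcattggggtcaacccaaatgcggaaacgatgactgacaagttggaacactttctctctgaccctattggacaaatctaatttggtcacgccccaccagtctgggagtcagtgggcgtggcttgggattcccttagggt
Cox8b (chr7:140900447-140900696, minus strand): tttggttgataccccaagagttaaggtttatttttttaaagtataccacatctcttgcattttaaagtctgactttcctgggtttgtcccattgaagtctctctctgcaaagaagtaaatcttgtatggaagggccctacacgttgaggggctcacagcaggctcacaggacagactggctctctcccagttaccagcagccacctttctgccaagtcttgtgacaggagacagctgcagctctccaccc

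By level per length, complex IV and complex V genes led both experiments. Averaged over the 12 homeostasis libraries, the highest deposited values were 866.3 for Cox4i1 (the ubiquitous form of a complex IV subunit), 733.1 for Atp5b (the catalytic beta subunit of ATP synthase), 665.7 for Cox6a1, 567.5 for Atp5a1 (the alpha subunit) and 551.7 for Cox8a. Averaged over the 12 transwell libraries, they were 1475.1 TPM for Cox4i1, 1257.7 for Cox6b1, 1218.9 for Cox8a, 1152.6 for Cox6a1 and 1041.8 for Atp5b. At the other end, Cox7b2 and Cox8c, both testis-type isoforms, were under 1 in every library. The 3 genes that encode the same mature c-ring protein of complex V had very unequal levels per length: Atp5g3 gave 94.7% to 98.3% of their summed level in every library, whereas Atp5g1 stayed between 1.14 and 8.46 and Atp5g2 between 0.0855 and 4.02. The exon lengths of Atp5g1, Atp5g2 and Atp5g3 are 4912, 1675 and 2181 bases, and 11.1%, 38.3% and 0% of their 50-base windows are shared with other genes. The part of length and shared sequence in this inequality was not tested. All 13 subunit genes of mitochondrial DNA were listed at 0 in every library of both tables, so nothing is said of them. Genes that share sequence with other parts of the genome can lose or exchange reads: Atp5l (84.8% of its 50-base windows shared), Cox16 (74.5%), Sdhaf1 (69%) and Cox20 (68.2%) are uncertain, and Atp5o, Uqcrb, Cox11, Ndufs3, Atp5g2 and Cox5a share 32% to 45.6%.

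**Figure D1:**
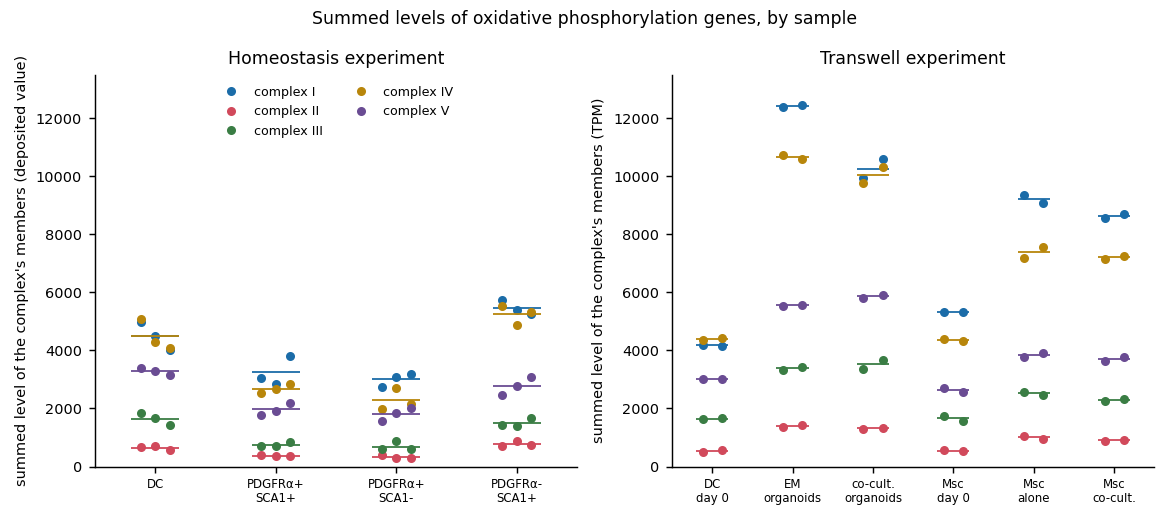
Summed level of the genes of each complex in every library (points) with group means (bars), in deposited values for the homeostasis fractions and in TPM for the transwell groups. Complex I went from 4199 and 4156 TPM in DC at day 0 to 12394 and 12451 in EM organoids and was lowest in homeostasis in the PDGFRα+ fractions (2740 to 3819).

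The first question in the transwell experiment is what DC change when they grow as organoids. The oxidative phosphorylation genes rose almost throughout: their summed level went from 13693 and 13813 TPM at day 0 to 33355 and 33492 in EM organoids and to 30170 and 31819 in co-cultured organoids, or from 1.37% and 1.38% of all transcripts to 3.34% and 3.35% and to 3.02% and 3.18%. Neither organoid group overlapped day 0. Against day 0, 85 of the 104 genes tested rose in EM organoids and 0 fell, beside 27.1% of all genes that rose and 17.2% that fell (limma, adjusted p under 0.05 over all genes). In co-cultured organoids, 82 of 104 rose and 0 fell, beside 23.2% and 19.1% of all genes. Both comparisons share the day 0 samples. The median log2 fold change of the members was 1.22 in EM organoids and 1.02 in co-cultured organoids, where the median over all genes was 0.12 and 0.00. In bulk samples, more RNA per cell and more cells of a type cannot be told apart. Genes of the dissociation response such as Fos and Jun moved with the same comparisons, their 7 genes summing to 8898 and 8865 at day 0 and to 896 to 1189 in organoids, hepatocyte markers in sum from 4865 and 5936 to at most 1951, and erythroid markers from 5206 and 5314 to at most 1.37, and ductal markers from 58085 and 58796 to 37217 to 48085. The hepatocyte genes did not move together. In EM organoids Fgb (47.6 and 43.8 to 222.6 and 175.5), Trf (41.3 and 57.4 to 318.7 and 374.9) and Ttr (505.6 and 593.1 to 882.7 and 917.4) rose. The other listed hepatocyte genes fell there, Alb from 3274.3 and 4284.3 to 508.9 and 415.6. In co-cultured organoids Fgb and Ttr fell and Trf overlapped day 0. In organoids 5 of the 6 erythroid genes were at 0, the globins Hba-a1, Hba-a2, Hbb-bs and Hbb-bt among them, and 2 of the 10 hepatocyte genes (Cps1 and Cyp3a11), while the 7 proliferation genes went in sum from 121 and 101 to 226 to 277. Of these Pcna fell (89.1 and 86.4 to 55.5 to 67.8), and the others rose. The part of these marker lists in the result was not tested.

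In complex I, all 36 subunits rose in both organoid groups, with median log2 fold changes of 1.54 in EM organoids and 1.25 in co-cultured organoids. Ndufv3, a small accessory subunit, stood at 23.7 and 21 TPM at day 0, at 147.1 and 162.1 in EM organoids and at 132.1 and 133.8 in co-cultured organoids. Ndufa8, an accessory subunit of the membrane arm, stood at 81.6 and 80.2, then 397.6 and 421.9, then 337.5 and 366.2. Every organoid sample lay above every day 0 sample for both genes. The log2 fold changes of Ndufv3 were 2.74 ± 0.15 (SE, n = 2 per group, adjusted p = 1.1e-06) and 2.52 ± 0.15 (adjusted p = 2.0e-06). Among core subunits, Ndufv1, which binds NADH, rose from 154.3 and 126.3 TPM to 274.3 and 264.4 and to 221.1 and 238.1, and Ndufs1 less surely, from 22.1 and 21.5 to 39.1 and 38.6 and to 33.9 and 36.8. The rise of Ndufs1 in co-cultured organoids (0.67 ± 0.20, adjusted p = 0.023) was lost in all 4 settings that left out a sample and after quantile normalization (adjusted p = 0.094). Only 4 and 3 of the 9 complex I assembly factors rose in the respective groups.

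In complex II, which also serves the citric acid cycle, all 4 subunits rose in both groups. The flavoprotein subunit Sdha went from 128.9 and 153.3 TPM to 351.2 and 331.6 and to 304.6 and 305.9, and the iron-sulfur subunit Sdhb from 129 and 138.4 to 251.5 and 262 and to 247.5 and 275.1. The membrane anchor Sdhd, whose promoter is printed above, rose by 1.13 ± 0.12 and 1.37 ± 0.12 on the log2 scale. The widest move of any member was that of Sdhaf4, an assembly factor that works on flavinylated Sdha. It was at 8.38 and 3.29 TPM at day 0, at 130.7 and 136.2 in EM organoids and at 75.7 and 87.4 in co-cultured organoids, with log2 fold changes of 4.41 ± 0.32 (adjusted p = 5.6e-06) and 3.70 ± 0.32 (adjusted p = 1.7e-05). The gene lies on chromosome 1 at 23995939 to 24005656, minus strand (GRCm38), and 111 of its exon bases (12.7%) overlap Gm26524, whose reads cannot be kept apart without strand.

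In complex III, 7 of 8 subunits rose in each organoid group. The rise of the core subunits was small, from 397.4 and 408.4 TPM to 557.7 and 623.8 and to 562.2 and 654.6 for Uqcrfs1, the Rieske iron-sulfur protein, and from 223 and 257.5 to 436.1 and 467.5 and to 445.9 and 485.5 for Uqcrc1. The small accessory subunit Uqcr11 moved further, from 145.2 and 133.9 TPM to 570.5 and 557 and to 596.6 and 644 (2.01 ± 0.13 and 2.14 ± 0.13, adjusted p = 2.3e-06 and 1.9e-06). Its organoid values lay far above day 0 and did not overlap it.

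In complex IV, 10 of the 11 ubiquitous subunits rose in both groups, and only Cox7c missed the threshold (log2 differences of 0.46 ± 0.24 and 0.36 ± 0.24). Cox6b1 went from 653.5 and 656 TPM to 1960.8 and 2013 and to 1969.9 and 2065.2, Cox4i1 from 919.4 and 1100 to 2410.2 and 2406.3 and to 1907.4 and 2040.2, and Cox8a from 643.9 and 573.9 to 1675.9 and 1579.6 and to 1773.4 and 1849. The nuclear-encoded subunits Cox5a and Cox5b rose too, Cox5a by 0.87 ± 0.14 and 1.32 ± 0.14 and Cox5b by 1.08 ± 0.13 and 0.68 ± 0.13 on the log2 scale. Among the restricted isoforms, only the testis-type Cox6b2 rose, from 5.87 and 6.2 TPM to 63.5 and 48 in EM organoids (3.0 ± 0.23, adjusted p = 8.6e-06) and to 21.7 and 33.6 in co-cultured organoids. It remained far below Cox6b1, giving 3.14% and 2.33% of the summed level of both in EM organoids.

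In complex V, 13 of 15 subunits rose in EM organoids and 12 in co-cultured organoids, and the catalytic-head subunits Atp5b and Atp5a1 rose by less than several small subunits. Atp5b stood at 1066.5 and 1143.4 TPM at day 0, 1333.3 and 1284.8 in EM organoids and 1517.9 and 1537.6 in co-cultured organoids, and Atp5a1 at 733.2 and 741.6, 1207 and 1149.6, and 1091.5 and 1141.8. Both were higher in every organoid sample than at day 0, with log2 fold changes in EM organoids of 0.24 ± 0.08 (adjusted p = 0.025, lost in 3 of the 4 settings without a sample) for Atp5b and of 0.67 ± 0.06 (adjusted p = 3.0e-05) for Atp5a1. Among the small subunits, Atp5e, the epsilon subunit of the F1 head, went from 97.4 and 79.5 TPM to 329.7 and 363.3 and to 325.5 and 294.3, and Atp5k of the membrane part rose by 1.97 ± 0.15 and 2.03 ± 0.15. The c-ring gene Atp5g3 rose by 0.82 ± 0.10 and 1.01 ± 0.10.

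**Figure D2:**
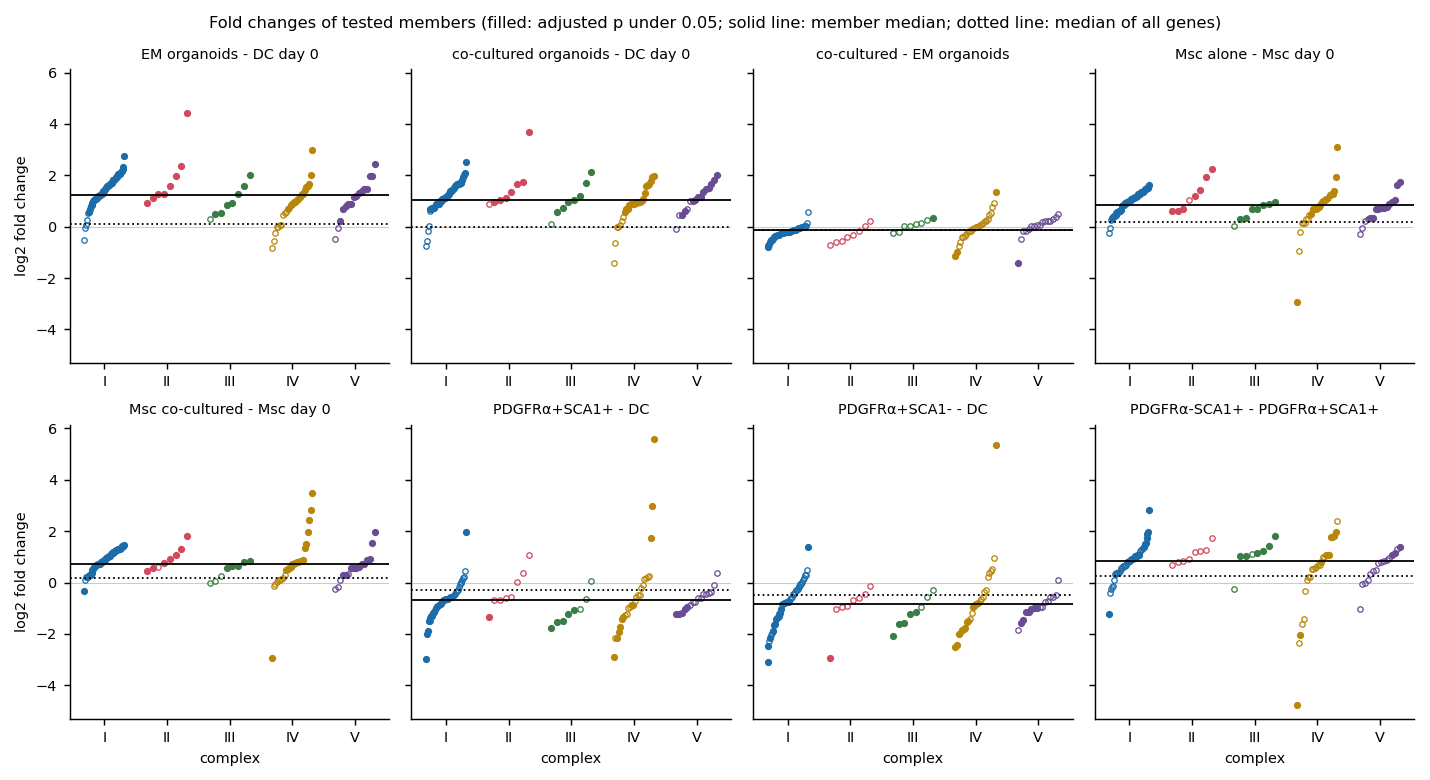
Log2 fold change of every tested member in 8 comparisons, by complex. Filled points have an adjusted p under 0.05, the solid line is the median of the members and the dotted line the median of all genes. The median of the members was 1.22 in EM organoids against day 0, where that of all genes was 0.12, and -0.68 in PDGFRα+SCA1+ Msc against DC, where that of all genes was -0.28.

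Organoids grown above Msc were then set against organoids grown alone in EM. Few members differed: 2 of 104 were higher and 9 lower in co-cultured organoids, beside 5.74% of all genes higher and 7.21% lower, and the median of the members (-0.14) was close to that of all genes (-0.13). Complex I held 6 of the 9 lower genes, all accessory subunits: Ndufa6, Ndufb11, Ndufa5, Ndufa3, Ndufb10 and Ndufa1. Ndufa6 was at 1665.3 and 1727.2 TPM in EM organoids and at 951.2 and 1004.8 in co-cultured organoids (-0.79 ± 0.08, adjusted p = 2.0e-04). The clearest difference was in Cox7a2l: 155.6 and 178.6 TPM at day 0, 667.6 and 683.4 in EM organoids, and 294.2 and 312.2 in co-cultured organoids (-1.15 ± 0.09, adjusted p = 5.5e-05). For both genes, the co-cultured samples lay between day 0 and EM organoids without overlapping either.

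The remaining differences between the organoids were less certain. Cox6b2 was lower in co-cultured organoids by 1.0 ± 0.23 on the log2 scale (adjusted p = 0.02), and Atp5s, at 53.3 and 54.1 TPM against 14 and 26.8, by 1.42 ± 0.38 (adjusted p = 0.037). Higher were Cox15, which makes heme A for complex IV (5.54 and 12 TPM against 25.7 and 19.8, 1.35 ± 0.38, adjusted p = 0.047), and Uqcrq of complex III (284.3 and 271.3 against 335.7 and 360.8, 0.32 ± 0.09, adjusted p = 0.036). Leaving out a sample removed the call in 4 of the 4 settings for Uqcrq, in 3 for Cox15 and Atp5s and in 2 for Cox6b2, with a pseudocount of 0.1 the adjusted p of Cox15 was 0.065 and that of Atp5s 0.063, and the count over the members fell to 3 without EM organoid 1, 4 without EM organoid 2, 2 without co-cultured organoid 1 and 5 without co-cultured organoid 2. Without scaling to TPM, that is in RPKM as deposited, 4 were higher and 8 lower, after quantile normalization 1 and 14, and in a fit of these groups alone 3 and 19.

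**Figure D3:**
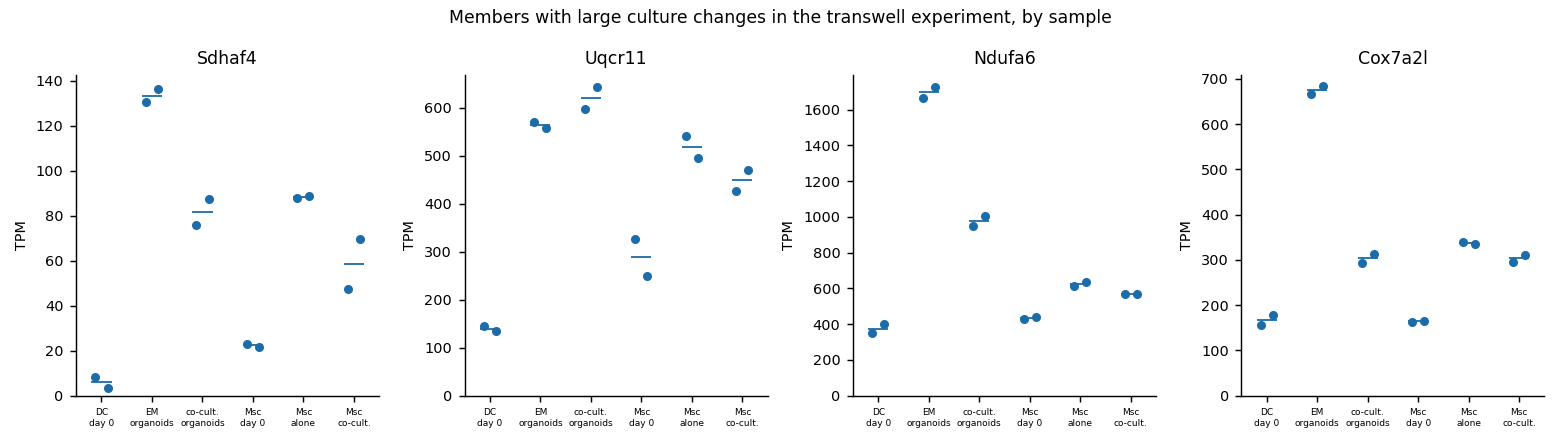
TPM of Sdhaf4, Uqcr11, Ndufa6 and Cox7a2l in each of the 12 transwell libraries, by group. EM organoids stood highest for Ndufa6 (1665.3 and 1727.2 TPM) and Cox7a2l (667.6 and 683.4 TPM), whereas Uqcr11 reached 596.6 and 644 TPM in co-cultured organoids.

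The next question is what Msc change in culture. Their oxidative phosphorylation genes rose as well, from a sum of 14725 and 14321 TPM at day 0 to 23918 and 24001 alone and 22494 and 22978 under organoids, or from 1.47% and 1.43% of all transcripts to 2.39% and 2.4% and to 2.25% and 2.3%. Of 104 genes tested, 83 rose and 1 fell in Msc alone, beside 27.4% and 17.4% of all genes, and 75 rose and 2 fell in co-cultured Msc, beside 26% and 17.3%. The medians of the members were 0.86 and 0.74 where those of all genes were 0.18 and 0.17, and both comparisons share the day 0 samples. Dissociation response genes fell in sum from 23427 and 22788 TPM to 544 to 803, hepatocyte markers from 28584 and 23522 to at most 533, and erythroid markers from 8678 and 10762 to at most 1.81. Smooth muscle and mural markers went in sum from 953 and 1075 to 3410 to 4169. Most of this was Acta2, at 430.3 and 600.7 at day 0 and 2827.7 to 3415.6 in culture. Actg2 and Tagln rose too, while Myh11 (53.1 and 65.6 to 20.7 to 28.3) and Rgs5 (149.5 and 104.9 to 12.7 to 24.4) fell. Proliferation genes summed to 83.5 and 111, then to 103 to 142. Among them Pcna fell (70.1 and 95.8 to 19.2 to 28). In contrast, Cdk1 (3.58 and 1.07 to 36.7 to 53.7), Mki67, Top2a, Ccnb1 and Mcm2 rose. Endothelial markers went in sum from 641 and 539 to 89.4 to 177, and ductal markers from 1283 and 2705 to 213 to 553. The largest endothelial fall was that of Selp (427.1 and 330.3 to at most 2.95), and Kdr, Flt4, Lyve1 and Stab2 fell too. In contrast, Pecam1 (70.6 and 80.1 to 45.8 to 96.1) and Cdh5 (30.5 and 34.9 to 31.4 to 58.2) overlapped day 0. The part of these marker lists in the result was not tested.

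By complex, 35 of 36 complex I subunits rose in Msc alone and 32 in co-cultured Msc, all 4 of complex II in both, 7 and 5 of 8 of complex III, 8 and 8 of 11 ubiquitous subunits of complex IV, and 11 and 11 of 15 of complex V. Ndufs1 went from 16 and 11.3 TPM to 34.4 and 26 and to 33.1 and 30.1 (1.10 ± 0.20 and 1.17 ± 0.20), and Ndufv3 from 55.6 and 68.5 to 158.3 and 156.7 and to 185.2 and 147.1. Uqcrc1 rose by 0.96 ± 0.12 and 0.81 ± 0.12, whereas the Rieske protein Uqcrfs1, at 330.3 and 281.2, 319 and 308, and 324.4 and 309.5 TPM, differed by 0.04 ± 0.11 and 0.06 ± 0.11 on the log2 scale. In complex IV, Cox5a rose by 0.69 ± 0.14 and 0.58 ± 0.14, while Cox5b (0.31 ± 0.13 and 0.28 ± 0.13), Cox6c (0.15 ± 0.11 and 0.08 ± 0.11) and Cox7a2 (0.15 ± 0.10 and 0.08 ± 0.10) did not pass the test in either. In complex V, Atp5a1 and Atp5b rose by only 0.32 ± 0.06 and 0.32 ± 0.08 in Msc alone and by 0.30 ± 0.06 and 0.30 ± 0.08 in co-cultured Msc. In co-cultured Msc the call of Atp5b was lost in 2 of the 4 settings without a sample and that of Sdha in 3.

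The largest moves in cultured Msc were in assembly factors and restricted isoforms. Sdhaf2, which attaches flavin to Sdha, went from 20.3 and 11.4 TPM to 84.5 and 67.2 in Msc alone (2.23 ± 0.31, adjusted p = 3.2e-04) and to 53.2 and 59.6 in co-cultured Msc. Cox10, which makes heme O for complex IV, went from 4.07 and 4.5 to 21.7 and 17.1 (1.94 ± 0.26, adjusted p = 2.9e-04) and to 14.8 and 26.1. No cultured sample overlapped day 0 for either gene. The muscle isoform Cox6a2, at 0 and 0.981 TPM at day 0, was at 11.7 and 10.6 in Msc alone and at 14.2 and 15.7 in co-cultured Msc (3.11 ± 0.35 and 3.50 ± 0.35, adjusted p = 9.5e-05 and 4.7e-05), and 70 of its exon bases (10.3%) overlap those of Itgad. Cox8b, another muscle isoform, went the other way, from 4.06 and 10.7 TPM to 0 in all 4 cultured samples, at least 6.5-fold and at least 5.59-fold lower at a floor of 3 reads per library, or at least 3.59-fold and 3.09-fold without the second day 0 sample.

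Culture under organoids was compared with culture alone. None of 104 members differed by limma with adjusted p under 0.05 (6 at an unadjusted p under 0.05), beside 0.0938% of all genes higher and 0.0331% lower, 23 genes in all. Member medians lay close together, at -0.09 against 0.00 for all genes. The 2 widest differences were in isoforms known for low oxygen: Ndufa4l2 stood at 153.8 and 148.5 TPM in Msc alone and at 496.5 and 286.3 under organoids (1.31 ± 0.57, adjusted p = 0.71), and Cox4i2 at 20.8 and 47.6 and at 138.1 and 64.9 (1.56 ± 0.54, adjusted p = 0.55). The samples of the groups did not overlap for either gene, but both differences missed the threshold. The same genes passed it in co-cultured Msc against day 0, where Ndufa4l2 had been at 73.5 and 66 TPM (2.42 ± 0.57, adjusted p = 0.0073, lost in 1 of the settings without a sample and, with a pseudocount of 0.1, at 0.25) and Cox4i2 at 10.3 and 15.5 (2.81 ± 0.54, adjusted p = 0.0023).

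The culture change of co-cultured organoids was also tested directly against that of co-cultured Msc. It was more positive in organoids for 36 of 104 members and more negative for 3, beside 13.8% and 14.5% of all genes, with a median difference of log2 fold changes of 0.40 for the members and -0.14 for all genes. Complex I held 12 of the 36, complex III 5, the ubiquitous subunits of complex IV 6 and complex V 6. Ndufb10, an accessory subunit of complex I, differed by 1.52 ± 0.13 (adjusted p = 5.0e-05). Sdhaf4 differed by 2.38 ± 0.45, and in Msc it went from 23.1 and 21.8 TPM to 47.3 and 69.7. The 3 negative differences were Cox4i2 (-4.24 ± 0.76), Cox6a2 (-3.50 ± 0.49) and Cox10 (-2.63 ± 0.37), the genes that rose in Msc, while in organoids Cox6a2 was listed at 0, Cox4i2 was at most 0.337 and Cox10 stood at 20.2 and 16.4 against 29.9 and 28.6 TPM at day 0. The positive difference of Cox8b (2.94 ± 0.53) rests on Msc, since DC and organoids were listed at 0.

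At day 0, before culture, Msc and DC differed in both directions. In Msc, 30 of 104 members were higher and 22 lower, beside 21.4% of all genes higher and 24.7% lower, with medians of 0.04 and -0.07. In complex III the core subunits Uqcrc1, Uqcrc2 and Uqcrfs1 were lower in Msc (by 0.58 ± 0.12, 0.71 ± 0.10 and 0.40 ± 0.11 on the log2 scale, with the call of Uqcrfs1 lost in 2 of the 4 settings without a sample), whereas the accessory Uqcr11, Uqcr10 and Uqcrh were higher. In complex V, Atp5b (1066.5 and 1143.4 TPM in DC, 703.9 and 624.2 in Msc), Atp5a1, Atp5g3 and Atp5o were lower, and Atp5d, Atp5k, Atp5e and Atp5c1 higher. In complex II none of the 4 subunits passed the test, with Sdha at 128.9 and 153.3 TPM in DC and 150.2 and 157.2 in Msc.

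The widest differences at day 0 were again in isoforms and assembly factors. Ndufa4l2 was at 0 and 1.5 TPM in DC and at 73.5 and 66 in Msc (5.48 ± 0.57, adjusted p = 4.7e-05), Cox4i2 at 3.83 and 1.01 against 10.3 and 15.5 (2.13 ± 0.54, adjusted p = 0.009), and Cox8b at 0 against 4.06 and 10.7, at least 5.53-fold higher (3.05-fold without the second Msc sample). Lower in Msc were Cox10 (29.9 and 28.6 against 4.07 and 4.5, -2.52 ± 0.26, adjusted p = 4.6e-05), the muscle isoform Cox7a1 (9.99 and 11.1 against 0.911 and 5.92, -1.66 ± 0.54, adjusted p = 0.031) and the complex I assembly factor Atp5sl (56.7 and 57.7 against 10.1 and 31.3, -1.62 ± 0.40, adjusted p = 0.008). Several marker lists were higher in sum in Msc samples at day 0: hepatocyte (28584 and 23522 against 4865 and 5936), dissociation response (23427 and 22788 against 8898 and 8865), erythroid (8678 and 10762 against 5206 and 5314) and endothelial (641 and 539 against 62.4 and 45). Of the dissociation response, Atf3 was lower in Msc (1296.9 and 1497 against 1778.9 and 1739.2) and Ier2 overlapped. The part of these lists in the differences was not tested. A fit of these groups alone called 18 higher and 12 lower, and the calls of Cox4i2 and Cox7a1 were lost in 2 and 3 of the 4 settings without a sample.

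In the liver itself, the homeostasis experiment set the stromal fractions against DC of the same mice. The oxidative phosphorylation genes were lower in the PDGFRα+ fractions: their summed level was 15988, 14455 and 13265 in DC of mice A, E and F, 8472, 8490 and 10091 in PDGFRα+SCA1+ Msc and 7291, 8815 and 8260 in PDGFRα+SCA1- Msc, with no overlap, or 1.29% to 1.36% of the column against 0.913% to 0.982% and 0.849% to 0.891%. Against DC, 4 of 103 members were higher and 29 lower in PDGFRα+SCA1+ Msc, beside 9.85% of all genes higher and 14% lower. In PDGFRα+SCA1- Msc 2 were higher and 37 lower, beside 9.98% and 18.9%. The medians of the members were -0.68 and -0.84, where those of all genes were -0.28 and -0.47 (-0.12 and -0.29 once the columns were rescaled to true TPM, with -0.47 and -0.59 for the members). These comparisons share the DC samples. Dissociation response genes were higher in sum in the Msc (22717 to 27765 against 13718 to 17864) and hepatocyte markers lower (344 to 2463 against 5901 to 7086). Within the first list Atf3 was lower in the Msc (625.2 to 1096.5 against 2014.9 to 3280.3), and Ier2 overlapped (1161.4 to 1821.2 against 1451 to 1668.1). In the hepatocyte list Alb was lower (118.4 to 1110.9 against 4807.2 to 6153.7), while Apoa1, Apoa2 and Fabp1 overlapped. The part of both lists in the result was not tested.

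By median log2 fold change, complex III subunits (-1.14 and -1.20) and the ubiquitous complex IV subunits (-0.86 and -1.50) lay lowest, beside -0.63 and -0.74 in complex I and -0.74 and -0.96 in complex V. The 3 core subunits of complex III were lower in both fractions: Uqcrc2 was at 209.8, 231.6 and 170.4 in DC, at 62.6, 69.1 and 74.3 in PDGFRα+SCA1+ Msc and at 61.8, 69.7 and 64.1 in PDGFRα+SCA1- Msc (-1.55 ± 0.21 and -1.62 ± 0.21, SE, n = 3, adjusted p = 1.6e-04 and 1.1e-04). Uqcrfs1 was at 682.5, 491.2 and 419.8, then 164.5, 138.9 and 151, then 75.9, 208.1 and 112.6 (-1.78 ± 0.39 and -2.09 ± 0.39). All Msc samples lay below all DC samples for both genes, and Uqcrc1 was lower by 1.49 ± 0.32 and 1.24 ± 0.32. Of the 11 ubiquitous complex IV subunits, 5 and 9 were lower: Cox6b1 stood at 853.9, 662.8 and 503.5 in DC, at 192.2, 270.6 and 287.1 in PDGFRα+SCA1+ Msc and at 182, 204.3 and 167.7 in PDGFRα+SCA1- Msc. Cox5a was lower by 1.74 ± 0.35 and 1.99 ± 0.35, Cox4i1 by 0.86 ± 0.18 and 0.87 ± 0.18, and Cox8a by only 0.10 ± 0.26 and 0.29 ± 0.26, which did not pass.

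In complex V, 5 and 7 of 15 subunits were lower, among them Atp5b (1056.1, 1197.6 and 1081.9 in DC, 541.4, 434.9 and 666.4 and then 537.9, 545.2 and 448 in the Msc), Atp5a1 (by 0.95 ± 0.23 and 1.02 ± 0.23) and Atp5g3 (by 1.22 ± 0.27 and 1.48 ± 0.27). In complex I, 9 and 11 of 36 subunits were lower. Ndufv1 stood at 144.4, 153 and 148.4 in DC and at 52.1 to 87.2 in the 6 Msc samples, while Ndufs1 was at 20.7 to 21.2 in DC and at 17.5 to 41.1 in the Msc, which overlap. In complex II, Sdhd was lower in both, at 177.3, 178.1 and 154.5 in DC, 72.6, 55.2 and 72.5 in PDGFRα+SCA1+ Msc and 34.7, 8.86 and 29.8 in PDGFRα+SCA1- Msc (-1.34 ± 0.41 and -2.95 ± 0.41, adjusted p = 0.03 and 1.8e-04). Sdha (-0.69 ± 0.28 and -0.70 ± 0.28) and Sdhb (-0.70 ± 0.41 and -1.04 ± 0.41) missed the threshold. The complex I assembly factor Ndufaf4, whose promoter is printed above, was at 74.5, 72.9 and 46.9 in DC and at 10.5, 2.61 and 9.55 in PDGFRα+SCA1- Msc (-3.09 ± 0.46, adjusted p = 3.1e-04). Atp5sl was lower in PDGFRα+SCA1+ Msc (-2.99 ± 0.82, adjusted p = 0.019, lost in 4 of the 6 settings without a sample). A fit of DC and PDGFRα+SCA1+ Msc alone called 51 members (4 higher, 47 lower), and without DC of mouse A 21 were called.

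Between the PDGFRα+ fractions, none of 103 members differed by limma with adjusted p under 0.05 (18 at an unadjusted p under 0.05), beside 0.435% of all genes higher in PDGFRα+SCA1+ Msc and 0.153% lower, 100 genes in all. Sdhd was higher in every PDGFRα+SCA1+ sample (55.2 to 72.6 against 8.86 to 34.7) without passing the test (1.60 ± 0.41, adjusted p = 0.13), and Cox7a2l likewise (134.8, 164.3 and 147.4 against 45.3, 103.6 and 75.1, 1.06 ± 0.29, adjusted p = 0.17). Leaving out the PDGFRα+SCA1- sample of mouse A gave 1 call and that of mouse E gave 2.

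The PDGFRα-SCA1+ fraction, which carried endothelial markers, had a summed level of 15855, 15330 and 16079, which overlapped the 15988, 14455 and 13265 of DC. As a share of the column, however, it was at 1.6%, 1.54% and 1.41%, above the 1.29% to 1.36% of DC in every sample, so the comparison depends on the scale. Against DC, 6 of 103 members were higher and 3 lower, beside 11.5% of all genes higher and 11.3% lower, with medians of 0.14 for the members and -0.04 for all genes. Ndufa8 was higher, at 529.3, 503.3 and 265.7 against 90.3, 101.6 and 81.5 in DC (2.18 ± 0.39, adjusted p = 0.0013), Uqcr11 at 218.1, 205.5 and 175.9 against 128.5, 73.1 and 73.8 (1.16 ± 0.30, adjusted p = 0.015), and Sdhaf3, an iron-sulfur assembly factor of complex II, at 3.21, 17.1 and 10.8 against 2, 0.968 and 0.143 (2.35 ± 0.77, adjusted p = 0.045, but 0.069 with samples paired by mouse and 0.14 with a pseudocount of 0.1). Lower were Cox7a1 (0 in all 3 samples against 21.6, 26.5 and 11.8, at least 19.6-fold lower), Cox7c of complex IV (4.02, 10.2 and 6.21 against 26.7, 18.6 and 32.6, -1.83 ± 0.49, adjusted p = 0.016) and Ndufaf4 (19.5, 21.1 and 18.1 against 74.5, 72.9 and 46.9, -1.65 ± 0.46, adjusted p = 0.02). The calls of Uqcr11, Sdhaf3, Cox7c and Ndufaf4 were lost in 3, 5, 3 and 4 of the 6 settings without a sample. The counts were fragile too: leaving out any of the 6 libraries left 3 to 5 calls (3 without DC A, E or F, 4 without PDGFRα-SCA1+ A, 5 without PDGFRα-SCA1+ E or F). Rescaled to true TPM, 12 were higher and 4 lower, after quantile normalization 5 and 7, and with both 8 and 8, so the balance of directions was not settled.

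Set against the PDGFRα+SCA1+ Msc, the PDGFRα-SCA1+ fraction was higher in 30 of 103 members and lower in 3, beside 10.9% of all genes higher and 7.86% lower, with medians of 0.83 and 0.25. This comparison shares samples with those against DC. Higher were 12 of 36 complex I subunits, 6 of 8 of complex III, 7 of 11 ubiquitous subunits of complex IV and 4 of 15 of complex V. Ndufa8 again led (53.5, 58.1 and 62.7 in PDGFRα+SCA1+ Msc, 2.81 ± 0.39, adjusted p = 2.7e-04), with Ndufb7, another accessory subunit of complex I (9.35, 8.01 and 11.7 against 51.3, 41.7 and 30.1, 1.96 ± 0.44, adjusted p = 0.0077), and the copper chaperone Cox17 (0.288, 0.839 and 1.8 against 5, 4.22 and 11.3, 1.95 ± 0.57, adjusted p = 0.032, lost in 4 of the 6 settings without a sample and, with samples paired by mouse, at 0.053). The groups did not overlap for any of these. Among the members lower there were Ndufa4l2 and Cox8b (at least 2.44-fold, and at least 1.49-fold without PDGFRα+SCA1+ F, where the call was lost at an adjusted p of 0.065 by limma). Paired by mouse, the adjusted p of Cox5b (1.09 ± 0.32) went from 0.033 to 0.053 and that of Atp5g3 (0.83 ± 0.27) from 0.05 to 0.061, and both calls were lost in 5 of the 6 settings without a sample. Hepatocyte markers were higher in PDGFRα-SCA1+ cells too (3909 to 8827 against 344 to 2463), and their part was not tested. After quantile normalization, 14 members were higher and 3 lower.

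**Figure D4:**
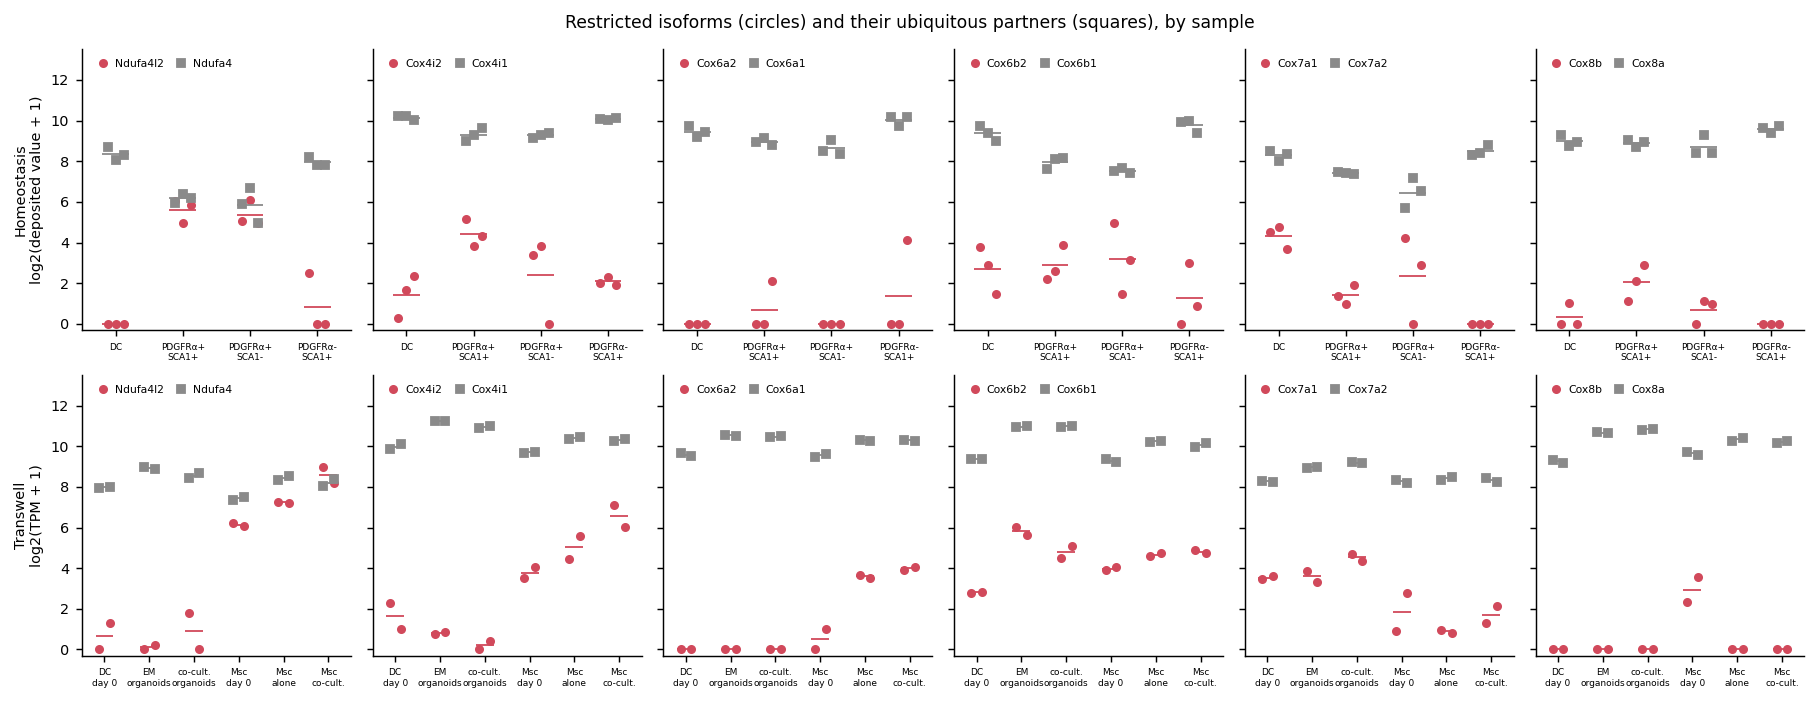
Log2(value + 1) of the restricted complex IV isoforms (circles) and their ubiquitous partners (squares) in every library of both experiments. Ndufa4l2 reached 64.8 in PDGFRα+SCA1+ Msc and 496.5 TPM in co-cultured Msc and was at 0 in all 3 homeostasis DC samples, whereas the ubiquitous Cox4i1 was at 504.7 or above in every library.

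Followed across all fractions, some restricted isoforms differed sharply between cell types. Ndufa4l2, the low-oxygen paralog of Ndufa4, was at 0 in the 3 homeostasis DC samples, at 64.8, 30.1 and 55.7 in PDGFRα+SCA1+ Msc, at 32.6, 66.2 and 29.8 in PDGFRα+SCA1- Msc and at 4.57, 0 and 0 in PDGFRα-SCA1+ cells. That is at least 98.3-fold and at least 83.9-fold above DC in the PDGFRα+ fractions (adjusted p = 7.3e-05 and 1.0e-04), and no sample overlapped. Its partner Ndufa4 went the other way, at 412, 262.3 and 310.1 in DC, 61, 83.3 and 72.9 in PDGFRα+SCA1+ Msc and 57.9, 100 and 29.8 in PDGFRα+SCA1- Msc (-2.15 ± 0.37 and -2.51 ± 0.37), so Ndufa4l2 gave 26.5% to 51.5% of their sum in PDGFRα+ cells. In culture, Ndufa4 rose in Msc, and Ndufa4l2 gave 32.2% and 28.4% of the sum in Msc alone and 65.7% and 45.9% under organoids, against 30.8% and 26.9% at day 0. Ndufa4l2 lies on chromosome 10 at 127514967 to 127517154, plus strand (GRCm38), and 32 of its exon bases (2.92%) overlap Shmt2.

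The other restricted isoforms of complex IV gave at most 25.9% of the sum with their ubiquitous partners in any library. Cox4i2 was at 34.3, 13.1 and 19.3 in PDGFRα+SCA1+ Msc against 0.231, 2.18 and 4.1 in DC (3.0 ± 0.92, adjusted p = 0.033, lost in 5 of the 6 settings without a sample and, with a pseudocount of 0.1, at 0.13) and gave at most 10.1% of the summed level of Cox4i1 and Cox4i2 in any library. Cox7a1 was at 21.6, 26.5 and 11.8 in homeostasis DC, at 17.7, 0 and 6.36 in PDGFRα+SCA1- Msc and at 9.07 to 25.3 TPM in DC and organoids of the transwell, and gave 3.53% to 9.23% of the sum of Cox7a1 and Cox7a2 in homeostasis DC and 25.9%, 0% and 6.52% in PDGFRα+SCA1- Msc. Cox6b2 gave 14.3% of its sum with Cox6b1 in PDGFRα+SCA1- A and at most 4.6% in the other homeostasis libraries. Cox7a1 was lower in PDGFRα+SCA1+ Msc than in DC (1.61, 0.954 and 2.72, -2.90 ± 0.88, adjusted p = 0.031, lost in all 6 settings without a sample and, with a pseudocount of 0.1, at 0.15). Cox8b was at 1.19, 3.31 and 6.56 in PDGFRα+SCA1+ Msc and at most 1.19 in any other homeostasis sample (1.72 ± 0.53 against DC, adjusted p = 0.034, lost in 4 of the 6 and, with a pseudocount of 0.1, at 0.053). Cox6a2 was at 0 in all homeostasis libraries but PDGFRα+SCA1+ F (3.25) and PDGFRα-SCA1+ F (16.6) and was not tested there. Cox7b2 and Cox8c, under 1 throughout, left the ubiquitous Cox7b (68.9 to 160.7 in homeostasis) and Cox8a as the measured forms.

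Other mitochondrial genes were counted beside the members. Over all genes, 27.1%, 23.2%, 27.4% and 26% rose in EM organoids, co-cultured organoids, Msc alone and co-cultured Msc against their day 0, and 17.2%, 19.1%, 17.4% and 17.3% fell. The 78 mitochondrial ribosomal proteins, which translate the subunits encoded in mitochondrial DNA, rose in 54 and fell in 1 in EM organoids (median 0.87), rose in 49 and fell in 2 in co-cultured organoids (0.74), rose in 58 and fell in 2 in Msc alone (0.98) and rose in 57 and fell in 1 in co-cultured Msc (0.94). At day 0, 8 were higher and 36 lower in Msc than in DC (46.2% lower, beside 24.7% of all genes). In homeostasis 12 and 23 were lower in the PDGFRα+ fractions and 0 higher: the 15.4% in PDGFRα+SCA1+ Msc is near the 14% of all genes, and in PDGFRα+SCA1- Msc 29.5% stood beside 18.9%. Of the 16 citric acid cycle genes, 11 rose and 0 fell in EM organoids, 10 rose and 1 fell in co-cultured organoids, 13 rose and 1 fell in Msc alone and 12 rose and 1 fell in co-cultured Msc, while 5 and 6 were lower in the PDGFRα+ fractions (31.2% and 37.5%) and 10 lower in Msc than in DC at day 0. Of 25 tested assembly factors outside the name rule, 16, 16, 16 and 13 rose in the same 4 comparisons. The numbers that fell were 1, 2, 0 and 0. Surf1 rose in both organoid groups, and Sco1 fell in both. Only 1 and 2 of the 25 were lower in the PDGFRα+ fractions (4% and 8%, under the share of all genes). Of 9 partners that the prefixes miss, such as cytochrome c1 (Cyc1), 6, 6, 7 and 7 rose and 1, 0, 2 and 2 fell. In the PDGFRα+ fractions 4 and 4 were lower (44.4% each) and 1 and 1 higher. The 13 genes of the outer membrane and import were more mixed, with 3 up and 3 down in EM organoids, 4 and 2 in co-cultured organoids, 8 and 3 in Msc alone and 8 and 2 in co-cultured Msc. Of these 13, 9 were lower in Msc than in DC at day 0 (69.2%), and 5 and 8 were lower in the PDGFRα+ fractions (38.5% and 61.5%).

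Of the 19 regulators of mitochondrial biogenesis, 6 rose and 4 fell in EM organoids, 31.6% and 21.1%, which is near the 27.1% and 17.2% of all genes. In co-cultured organoids 5 rose and 8 fell (26.3% and 42.1%), in Msc alone 2 and 6 (10.5% and 31.6%) and in co-cultured Msc 3 and 6 (15.8% and 31.6%). Among those that fell in EM organoids were Pprc1, a coactivator of the PGC-1 family (-2.32 ± 0.18, adjusted p = 8.3e-06), and Nrf1, whose core letters were searched in the promoters (-1.82 ± 0.32, adjusted p = 0.0014). Esrra, an estrogen-related receptor (1.40, adjusted p = 0.0017), and Slirp, which stabilizes mitochondrial transcripts (1.34, adjusted p = 1.8e-04), rose there. The summed level of the 19 was 422 and 443 TPM in DC at day 0 and 330 to 414 in organoids, and 279 and 282 in Msc at day 0 and 210 to 247 in cultured Msc.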

How the data were processed

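RNA was sequenced by Smart-seq2, single-end and without strand, and the reads were aligned by the authors with STAR 2.5.0a to GRCm38 and counted with featureCounts (1.6.0 for the transwell), as the submitters' processing notes name them. The transwell table was deposited in RPKM (reads per kilobase of a gene and per read total of the library) by the authors, and was scaled here to TPM. The homeostasis table, deposited under the name TPM, has column sums from 847000 to 1170000, so its deposited values were treated as a signal. The totals by which genes were divided had been taken in turn from the 12 samples, and undoing this was an alternative. Low values were whole reads within 0.02 for 92.8% (homeostasis) and 93% (transwell) of 47020 and 50173 values of up to 20 reads, which gave the depths.

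The members and all lists were chosen with earlier results of these data known. Genes that reached a value of 1 in no fewer than 3 (homeostasis) or 2 (transwell) libraries were tested, 17028 and 18133, on log2(value + 1), with limma 3.58.1 (R 4.3.3), 1 mean per group, eBayes with trend, all 12 libraries of an experiment in 1 fit, two-sided, with Benjamini-Hochberg adjustment over all genes. Fold changes of low genes are understated on this scale. The other tables were made with Python 3.11.15, pandas 2.3.3 and matplotlib 3.10.9. SE and p-values rest on the spread between samples within groups, shared over all groups of an experiment and moderated over genes. They do not rest on the 2 or 3 samples of the compared groups alone. Named were, in each comparison, up to 3 risers and 3 fallers, by size of change, from the members called without overlap of samples, the isoform pairs, core subunits of each complex, the 5 highest members and those under 1 everywhere. On simulated data, 3% of genes with a log2 fold of 1 and 39% with a log2 fold of 2 were recovered for PDGFRα+SCA1+ Msc against DC (17028 genes), and 31% and 85% for EM organoids against day 0 (18133 genes).

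Homeostasis samples with the same letter come from the same mouse and are paired by design, although their deviations from the group means were weakly correlated (r from 0.0102 to 0.0973 across genes). Alternatives were a pseudocount of 0.1, no filter, quantile normalization, RPKM as deposited, the undone totals, only the groups compared, a replicate block and leaving out each library. The 4 columns of the authors' means were not used. Counts cover all members, but 1 member chosen for naming is not reported here. Intervals were not computed for single samples, and floors of 3 reads cover counting error only.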

Additional observations from a re-analysis of the deposited data

Results flagged for a closer look

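The culture change of co-cultured organoids against DC and that of co-cultured Msc against Msc at day 0 differed by an interaction term in limma for 39 members with adjusted p under 0.05. Each value below is the difference of log2 fold changes, organoids minus Msc.

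Complex I had 12 subunits with a larger change in organoids, among them Ndufb10 (1.52), Ndufs8 (1.45), Ndufv3 (1.12), Ndufa6 (1.0), Ndufa1 (0.94), Ndufa8 (0.91), Ndufb9 (0.86), Ndufs6 (0.85), Ndufb3 (0.79), Ndufb11 (0.62) and Ndufa13 (0.50). The complex I assembly factor Ndufaf7 differed by 1.5. In complex II, the assembly factor Sdhaf4 differed by 2.38, Sdhd by 0.80 and Sdha by 0.68. In complex III, the differences were 1.49 for Uqcr11, 1.05 for Uqcrh, 0.89 for Uqcr10, 0.53 for Uqcrfs1 and 0.53 for Uqcrq.

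In complex IV they were 1.17 for Cox7b, 1.03 for Cox8a, 0.85 for Cox6b1, 0.83 for Cox7a2, 0.80 for Cox6c and 0.74 for Cox5a. Its assembly factor Cox14 differed by 0.42. Its isoforms Cox8b and Cox6b2 differed by 2.94 and 1.14. More negative in organoids were Cox10 (-2.63), Cox6a2 (-3.50) and Cox4i2 (-4.24). In complex V the values were 1.46 for Atp5k, 1.37 for Atp5d, 0.92 for Atp5c1, 0.90 for Atp5e, 0.65 for Atp5j and 0.30 for Atp5a1.

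Of the isoform and core genes named, the differences of Atp5a1, Cox6b2, Uqcrfs1, Sdha and Cox5a lost their call in 7, 6, 6, 5 and 3 of the settings without a sample.

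For 2 further cases every organoid sample lay on one side of day 0 and every Msc sample on the other, and the difference was not tested or did not pass. In cells cultured apart, Cox4i2 differed by -2.09 (-0.83 in EM organoids and 1.26 in Msc alone), which was not tested. In co-culture, Atp5g2 differed by 0.88 (0.70 and -0.18, interaction adjusted p = 0.27).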

How the results depend on the processing

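Counts of members called kept their direction and stayed within 1.5 times the stated count under RPKM as deposited, a pseudocount of 0.1 and the removal of the filter in all comparisons run. Exceptions under other settings follow. When nothing but the compared groups was fitted, the calls were 51 for PDGFRα+SCA1+ Msc against DC (33 as stated), 22 for co-cultured against EM organoids (11) and 30 for Msc against DC at day 0 (52), and fewer samples entered those fits. PDGFRα-SCA1+ cells against DC (9) gave 12 after quantile normalization, with the direction of the majority reversed, 16 with the totals undone, 16 with the totals undone and quantile normalization, and 17 with the totals undone and the replicate block. PDGFRα-SCA1+ cells against PDGFRα+SCA1+ Msc (33) gave 17 after quantile normalization and 21 with the totals also undone. PDGFRα+SCA1+ against PDGFRα+SCA1- Msc (0) gave 1 with the totals undone, with and without quantile normalization. The settings that combine the undone totals with another were chosen after seeing the data, and the causes were not tested.

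Without single libraries the counts ran from 21 to 24 for PDGFRα+SCA1+ Msc against DC, from 26 to 41 for PDGFRα+SCA1- Msc against DC, from 3 to 5 for PDGFRα-SCA1+ cells against DC (more lower than higher without DC E or F or PDGFRα-SCA1+ E or F), from 0 to 2 between the PDGFRα+ fractions, from 22 to 26 for PDGFRα-SCA1+ against PDGFRα+SCA1+, from 2 to 5 between organoids, from 38 to 50 at day 0, and from 31 to 47 for the difference of culture changes. In the transwell, the lone sample left in a group is then assumed to vary like the others. With the replicate block, which pairs samples of 1 mouse in homeostasis, the calls were 31, 38, 6, 0 and 29 and no count moved by over 1.5 times. The block ended the calls of Cox7a2l in PDGFRα+SCA1- Msc against DC (adjusted p = 0.062 by limma) and of Sdhaf3, Cox17, Cox5b and Atp5g3 as given above, and of no other named member in homeostasis. In the transwell no label says what samples of 1 number share (r from 0.0043 to 0.0295, which does not settle it), the block ended the calls of Atp5s (adjusted p = 0.052) and Uqcrq (0.051) between organoids, and it gave 85, 81, 10, 83, 77, 0, 50 and 39. Rescaling RPKM to TPM lowered the all-gene median of co-cultured organoids against day 0 from 0.10 to 0.00. Of 853 values of named members with a call under other settings, 807 kept their side, 46 lost the call and 0 changed direction.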
